A study of Homo sapiens with 12 samples.

Results

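A set of 10 genes that mark the epithelial or the mesenchymal state of carcinoma cells was followed through RNA sequencing of cholangiocarcinoma cells. They are CDH1, EPCAM, ESRP1, CDH2, VIM, ZEB1, ZEB2, SNAI1, SNAI2 and TWIST1. The 10 genes were taken by symbol from a list, and all 10 were found among the 60651 genes of the deposited count table. The study asked how a PARP inhibitor changes the response of cholangiocarcinoma to a DNA methyltransferase inhibitor. EGI-1 and HUCCT1 are established human cholangiocarcinoma cell lines, each derived from a single patient and labelled wild type. EGI-1 cells received DMSO vehicle, 0.5 μM decitabine, 200 nM talazoparib, or both agents at those doses. HUCCT1 cells received vehicle or 1 μM decitabine. All cells were harvested after 72 h, and each of the 6 groups holds 2 libraries. Decitabine is a nucleoside that is built into DNA and traps DNA methyltransferases, and talazoparib inhibits PARP and traps it on DNA.

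Epithelial cells are joined by E-cadherin junctions, and carcinoma cells can lose these junctions and take on a motile mesenchymal form. Transcription factors of the SNAIL, ZEB and TWIST families repress E-cadherin and other epithelial genes in this transition. Mesenchymal cells in turn carry N-cadherin and vimentin, and many carcinoma lines rest in states between both ends.

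The EGI-1 libraries held 23139065 to 33181930 counts in all and the HUCCT1 libraries 32519985 to 34965627. Levels are given as CPM, counts per 1000000 counts of the library, with TMM factors over all 12 libraries. The 7 biliary epithelial markers were above 3 counts in every library of both lines, and their summed level was 7800 to 8730 CPM in EGI-1. The 5 hepatocyte markers reached a summed level of at most 0.406 CPM in any library. The labels do not say whether the 2 libraries of a group came from separate cultures, so the p-values measure the spread between these libraries, which may be technical.

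One library stood apart. In EGI-1 combination replicate 2, all 15 genes of a T lymphocyte marker list were above 3 counts and each was at its highest CPM among the 8 EGI-1 libraries. CD3E, a chain of the T cell receptor complex, had 148 counts there and between 0 and 4 in the other 7 libraries. PTPRC, the leukocyte surface phosphatase CD45, had 381 counts against 1 to 7. The summed level of the list was 121 CPM, against 30.5 to 62.1 CPM in the other 7 libraries. The list was added after these counts were seen. Calls of the EGI-1 combination against vehicle, and counts of these calls, are therefore also given without this library, except for SPARC and SNAI3. Medians of the lists and counts of genes whose groups did not overlap are given with this library only. The part of these transcripts in the results was not tested beyond that.

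**Figure D1:**
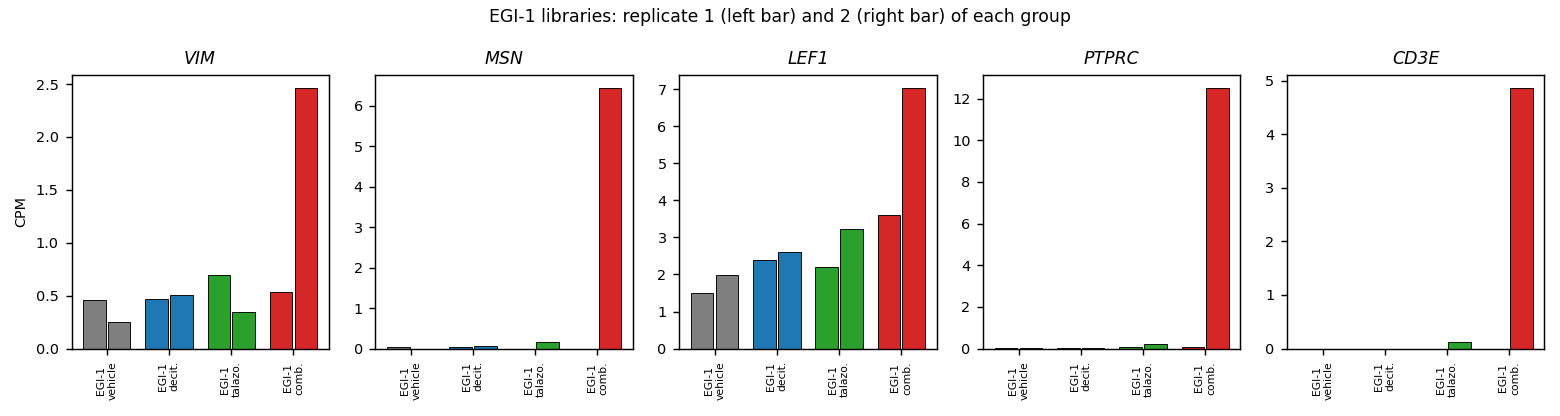
Level in CPM (vertical axis) of VIM, MSN, LEF1, PTPRC and CD3E in the 8 EGI-1 libraries, with 1 bar per library and replicate 1 left of replicate 2. The right-hand combination bar is the highest in all 5 panels, at 2.47 CPM for VIM and 12.5 CPM for PTPRC.

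The 2 lines differed most in the mesenchymal structural genes. Without treatment, CDH2 and VIM were abundant in HUCCT1 and near the lower limit of detection in EGI-1. The 3 epithelial genes were high in both lines and somewhat lower in HUCCT1. Comparing vehicle-treated HUCCT1 with vehicle-treated EGI-1 in an edgeR fit of all 12 libraries, 7 of the 10 genes passed an adjusted p of 0.05, where 55.8% of all 25096 tested genes passed. CDH2, VIM, SNAI2 and ZEB2 were higher in HUCCT1, 4 genes against 28.5% of all genes called higher. CDH1, EPCAM and ESRP1 were lower, 3 genes against 27.3%. Of the genes called higher, ZEB2 passed the count filter only through HUCCT1 libraries, so it could hardly have been called lower there. The libraries of the 2 lines did not overlap for 9 of the 10 genes, against 77.8% of all tested genes. These 9 include 2 genes with few counts, EGI-1 vehicle being given first. TWIST1 had 0 and 0 counts against 1 and 1, and ZEB2 had 2 and 0 against 9 and 11. TWIST1 also entered the test only through HUCCT1 libraries. The lines were also grown in different media, and their library names carry different tags whose meaning is not given. Line, medium and whatever the tags stand for cannot be told apart.

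CDH2 encodes N-cadherin, the cadherin of mesenchymal and neural cells. It had 0.689 and 1.01 CPM in the EGI-1 vehicle libraries and 188 and 180 CPM in those of HUCCT1. VIM encodes vimentin, the intermediate filament protein of mesenchymal cells. It had 0.459 and 0.252 CPM in EGI-1 vehicle and 81.2 and 76.1 CPM in HUCCT1 vehicle. For both genes every HUCCT1 library lay far above every EGI-1 library. The log2 difference was 7.77 ± 0.20 (SE) for CDH2, with an adjusted p of 2.6e-15 from edgeR. It was 7.75 ± 0.47 for VIM, with an adjusted p of 2.1e-06.

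The upstream sequences of CDH2 and VIM are shown because these 2 genes carried the largest fold differences between the lines among the 10 genes, and because decitabine acts on methylation at CG dinucleotides. The lines give the 250 bases before a transcript start from RefSeq on GRCh38.p14, 5′ to 3′ on the strand of the gene, with each CG in capitals. CDH2 is read from the minus strand at chr18:28177131-28177380, and VIM from the plus strand at chr10:17227991-17228240.
CDH2: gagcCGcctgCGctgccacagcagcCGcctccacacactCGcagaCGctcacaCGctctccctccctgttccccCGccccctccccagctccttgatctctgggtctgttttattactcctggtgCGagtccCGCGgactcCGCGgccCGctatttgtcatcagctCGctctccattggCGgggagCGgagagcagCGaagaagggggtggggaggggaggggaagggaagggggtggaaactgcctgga
VIM: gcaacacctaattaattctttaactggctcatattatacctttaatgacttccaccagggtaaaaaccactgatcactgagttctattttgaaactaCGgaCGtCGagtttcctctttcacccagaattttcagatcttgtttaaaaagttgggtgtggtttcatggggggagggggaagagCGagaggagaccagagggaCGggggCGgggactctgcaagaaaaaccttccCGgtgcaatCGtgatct
The CDH2 stretch holds 17 CG dinucleotides, and 39% of the 35116 promoters in the table hold at least as many. A second CDH2 start in the table, at chr18:28036642-28036891, has 4 in its 250 bases, and 70.7% of promoters hold at least as many. The VIM stretch holds 8, and 56.3% hold at least as many, the median over all promoters being 11. Neither stretch holds CACCTG or its reverse complement CAGGTG, a form of the E-box read by SNAIL and ZEB proteins, which occurs on one strand or the other in 17.5% of all promoters. Only 4 of the 10 genes have an entry in the table, the others being ZEB1 and ZEB2. DNA methylation was not measured in these libraries.

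SNAI2, which encodes the zinc finger repressor SLUG, had 12.3 and 9.92 CPM in EGI-1 vehicle and 48.2 and 53.3 CPM in HUCCT1 vehicle. The lines did not overlap, and the log2 difference was 2.19 ± 0.13 with an adjusted p of 3.3e-12 from edgeR. ZEB2, a zinc finger and homeobox repressor, was rare in both lines, with 2 and 0 counts in EGI-1 vehicle and 9 and 11 in HUCCT1 vehicle. The ratio of these counts per library total was 7.99, with an exact 95% counting interval of 1.94 to 70.5. Its edgeR call, with an adjusted p of 0.009, was lost without EGI-1 vehicle replicate 2 (adjusted p = 0.096).

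CDH1, the gene of E-cadherin, had 522 and 520 CPM in EGI-1 vehicle and 303 and 317 CPM in HUCCT1 vehicle. EPCAM, which encodes an epithelial adhesion molecule, had 281 and 280 CPM against 171 and 165 CPM. ESRP1, a splicing regulator that keeps epithelial isoforms, had 214 and 213 CPM against 171 and 158 CPM. All 3 were higher in both EGI-1 libraries than in either HUCCT1 library. The log2 differences, HUCCT1 minus EGI-1, were -0.75 ± 0.066, -0.74 ± 0.07 and -0.38 ± 0.08 in the same order, with adjusted p-values of 2.7e-09, 8.3e-09 and 0.00037 from edgeR.

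ZEB1, SNAI1 and TWIST1 did not pass the test between the lines. ZEB1 had 4.3 and 4.57 CPM in EGI-1 vehicle and 4.55 and 4.3 CPM in HUCCT1 vehicle, and its ranges overlapped. SNAI1 had 2.33 and 2.26 CPM against 1.61 and 2.25 CPM, a log2 difference of -0.25 ± 0.21 with an adjusted p of 0.32 from edgeR. TWIST1 had 0 counts in both EGI-1 vehicle libraries and 1 count in each HUCCT1 vehicle library, too few for a fold. Reads of ZEB1 may be shared with its antisense neighbour ZEB1-AS1, since the use of strand in counting is not stated, and ZEB1-AS1 had 32 to 64 counts per library against 98 to 193 for ZEB1.

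Levels were compared between genes as CPM per kb of exon, using the joined exon length of each gene in GENCODE 44. In EGI-1 vehicle the order was EPCAM at 115, CDH1 at 85.8, ESRP1 at 43.8, SNAI2 at 3.39, SNAI1 at 1.35 and ZEB1 at 0.512 CPM per kb. CDH2 and VIM followed at 0.0988 and 0.0687 CPM per kb, overlapping each other, and ZEB2 and TWIST1 came last and also overlapped. In HUCCT1 vehicle EPCAM, CDH1 and ESRP1 again led at 69, 51 and 33.7 CPM per kb. CDH2 came next at 21.5, and SNAI2 and VIM overlapped at 15.5 and 15.2 CPM per kb. SNAI1 at 1.13 and ZEB1 at 0.511 CPM per kb followed. By this length the lines shared the first 3 places, while CDH2 and VIM moved up in HUCCT1. With the length of the longest transcript instead, 6 of the 10 genes took another place in HUCCT1 vehicle and none in EGI-1 vehicle. CDH2 at 45.9 then came above ESRP1 at 43.7 CPM per kb in HUCCT1 vehicle, with overlap. The shared first 3 places therefore depended on the length used.

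**Figure D2:**
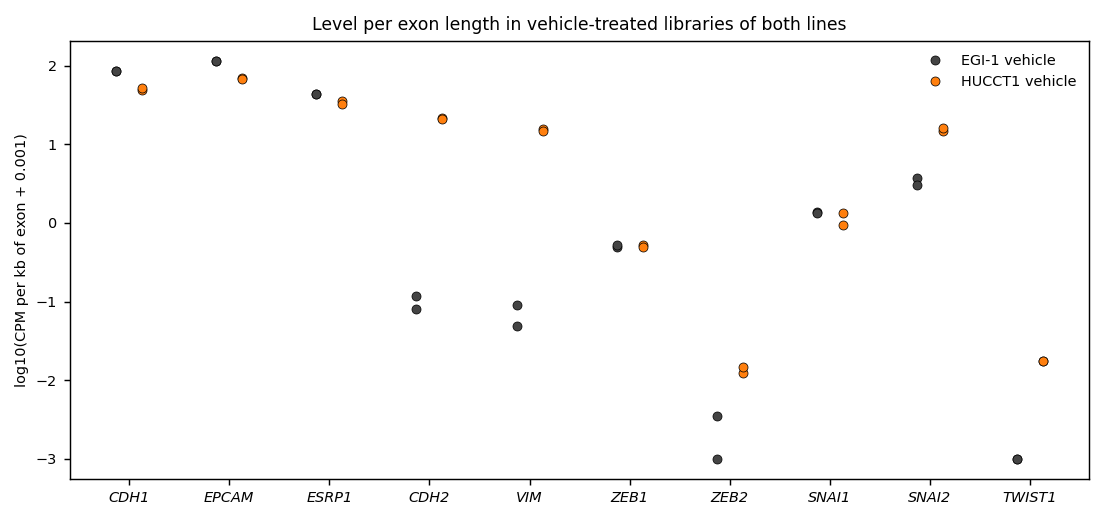
Level in vehicle-treated cells as log10 of CPM per kb of exon plus 0.001 (vertical axis) for the 10 genes, with 1 point per library and 2 libraries per line. CDH2 and VIM lie far lower in EGI-1 (0.0988 and 0.0687 CPM per kb on average) than in HUCCT1 (21.5 and 15.2), while the 3 epithelial genes lie high in both lines.

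In EGI-1 the single agents changed 1 of the 10 genes each, SNAI1 in both cases, and the combination changed 3. ZEB2 and TWIST1 were too low in EGI-1 to be tested, so 8 of the 10 genes entered each test. With decitabine 1 of the 8 passed, where 0.544% of the 22406 tested genes passed. With talazoparib 1 of the 8 passed, against 4.12% of all tested genes. With the combination 3 of the 8 passed, against 18.7%. SNAI1 and VIM were higher than vehicle, where 11.1% of all tested genes were called higher, and ESRP1 was lower, where 7.61% were. Without combination replicate 2 these were 2 of the 8 genes, SNAI1 and ESRP1, against 10.7% of 23508 tested genes. The groups did not overlap for 3, 4 and 7 of the 8 genes in these comparisons, against 38.7%, 49.3% and 60.3% of all tested genes. The 3 comparisons share the vehicle libraries, so a value shared by all 3 is not independent.

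SNAI1, on chr20:49982980-49988886 (gene spans are from GENCODE 44 on GRCh38), encodes the zinc finger repressor SNAIL. It had 2.33 and 2.26 CPM with vehicle, 4.62 and 5.08 CPM with decitabine, 4.6 and 3.86 CPM with talazoparib and 5.92 and 5.59 CPM with both. Every treated library lay above both vehicle libraries, and the combination libraries lay above those of either agent. The log2 fold change against vehicle was 1.08 ± 0.18 with decitabine, 0.87 ± 0.18 with talazoparib and 1.31 ± 0.18 with the combination, or 2.12-, 1.83- and 2.49-fold. The adjusted p-values from edgeR were 0.0066, 0.0073 and 4.4e-05. The call with decitabine was lost without vehicle replicate 1 (adjusted p = 0.14) or vehicle replicate 2 (0.16). The call with talazoparib was lost without vehicle replicate 1 (0.11), vehicle replicate 2 (0.12) or talazoparib replicate 1 (0.11). The combination call held without combination replicate 2, at 1.36 ± 0.22 with an adjusted p of 0.00054.

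The fold change of SNAI1 with both agents was below the sum of the single log2 effects. The departure from that sum was -0.64 ± 0.24, with an unadjusted p of 0.017 that became 1.0 on adjustment in edgeR. None of the 8 tested genes departed from the sum at an adjusted p of 0.05, where 0.161% of all tested genes did, SNAI1 being the only one of the 8 with an unadjusted p below 0.05. DESeq2 also gave 0.

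ESRP1 fell with the combination and is the one epithelial gene of the 3 to pass in EGI-1. It had 214 and 213 CPM with vehicle, 191 and 180 CPM with decitabine, 181 and 196 CPM with talazoparib and 162.8 and 173.6 CPM with both. No treated library overlapped vehicle, and the combination libraries lay below those of either agent. The log2 fold change was -0.35 ± 0.062 with the combination, with an adjusted p of 0.00059 from edgeR, or 1.28-fold lower. It was -0.40 ± 0.077 without combination replicate 2, with an adjusted p of 0.003. The single agents gave -0.20 ± 0.061 and -0.18 ± 0.061, with adjusted p-values of 0.22 and 0.14.

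CDH1 and EPCAM did not pass in EGI-1 under any treatment. CDH1 lay between 520 and 556 CPM in the 8 libraries, and its log2 fold changes were 0.01, 0.09 and 0.05 with decitabine, talazoparib and the combination, each with an SE of 0.05. EPCAM lay between 273 and 287 CPM, and its log2 fold changes lay between 0.00 and 0.01, each with an SE of 0.054. The largest of these fitted changes was 1.06-fold, for CDH1 with talazoparib.

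VIM passed with the combination, but its call rests on the library that stood apart. It had 0.459 and 0.252 CPM with vehicle, 0.465 and 0.511 CPM with decitabine, 0.693 and 0.343 CPM with talazoparib and 0.531 and 2.47 CPM with both. Combination replicate 1 lay within the range of the single-agent libraries, and combination replicate 2 lay above all others with 75 counts against 7 to 17. The log2 fold change of the combination was 2.08 ± 0.64 with an adjusted p of 0.042 from edgeR. Without combination replicate 2 it was 0.56 ± 0.63 with an adjusted p of 0.65. MSN, which encodes the membrane-to-actin linker moesin, had 196 counts in that library and 0 to 6 in the other 7.

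CDH2 and ZEB1 were higher in both combination libraries than in both vehicle libraries but did not pass. CDH2 had 0.689 and 1.01 CPM with vehicle, 1.33 and 0.657 CPM with decitabine, 1.22 and 1.66 CPM with talazoparib and 1.23 and 2.17 CPM with both. Its log2 fold change with the combination was 1.02 ± 0.37 with an adjusted p of 0.066 from edgeR, and 0.53 ± 0.45 without combination replicate 2. ZEB1 had 4.3 and 4.57 CPM with vehicle and 5.84 and 6.35 CPM with both agents, a log2 fold change of 0.45 ± 0.18 with an adjusted p of 0.083, and of 0.39 ± 0.22 without combination replicate 2. SNAI2 lay between 8.29 and 12.3 CPM in the 8 libraries, and its log2 fold changes of -0.19, -0.17 and 0.05 had adjusted p-values of 0.63 to 0.86 from edgeR.

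ZEB2 had 0 to 9 counts in the EGI-1 libraries, the 9 being in combination replicate 2. TWIST1, on chr7:19020991-19117636, encodes a basic helix-loop-helix factor of mesenchyme and had 0 counts in all 8. A count of 0 allows a level of up to 0.0904 to 0.13 CPM in these libraries, taking 3 counts as the limit. This limit and the intervals on counts cover counting error only.

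Against the single agents, the combination changed none of the 8 tested genes in edgeR. The share of all tested genes that passed was 7.68% against decitabine and 1.92% against talazoparib. At an unadjusted p below 0.05 there were 2 and 4 of the 8 genes, and DESeq2 gave 0 in both comparisons. SNAI1 differed by 0.23 ± 0.16 from decitabine (adjusted p = 0.45) and by 0.44 ± 0.17 from talazoparib (adjusted p = 0.23). ESRP1 differed by -0.15 ± 0.062 and -0.18 ± 0.062, with adjusted p-values of 0.15 and 0.19. The groups did not overlap for 6 of the 8 genes against decitabine and for 5 against talazoparib, where 47% and 43.3% of all tested genes did not.

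**Figure D3:**
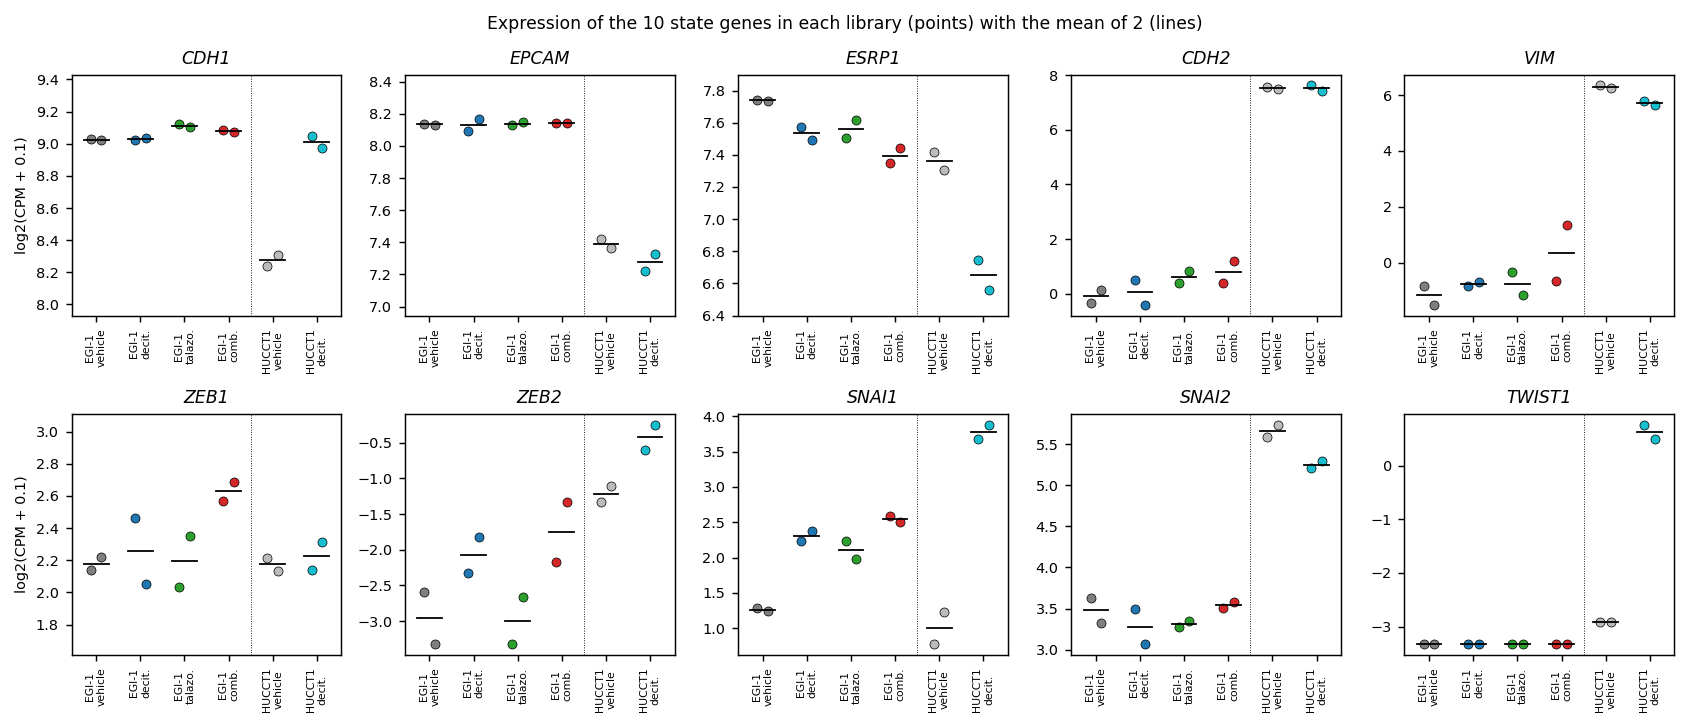
Level of the 10 genes as log2 of CPM plus 0.1 (vertical axis, a scale of its own per gene) in the 12 libraries, with 1 point per library and a line at the mean of 2. SNAI1 is higher in every treated group than in its own vehicle, ESRP1 is lower, and TWIST1 is above 3 counts in the 2 decitabine-treated HUCCT1 libraries and at 0 in EGI-1.

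In HUCCT1, decitabine changed genes of both states and in both directions. CDH1, SNAI1 and TWIST1 rose, and ESRP1, VIM and SNAI2 fell. These are 6 of the 10 genes, 3 in each direction, where 33.5% of the 22479 tested genes passed, 19.6% higher and 13.9% lower. Of the 6, TWIST1 passed the count filter only through the decitabine libraries, where it was high. The groups did not overlap for 8 of the 10 genes, against 65.1% of all tested genes.

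CDH1, on chr16:68737292-68835537, rose from 303 and 317 CPM with vehicle to 529 and 503 CPM with decitabine. Both treated libraries lay above both vehicle libraries and near the 520 to 556 CPM of the EGI-1 libraries. The log2 fold change was 0.73 ± 0.10 with an adjusted p of 4.8e-06 from edgeR, or 1.66-fold.

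The other 2 epithelial genes did not follow CDH1. ESRP1, on chr8:94641074-94707466, fell from 171 and 158 CPM to 107 and 94.1 CPM. Its groups did not overlap, and the log2 fold change was -0.72 ± 0.11 with an adjusted p of 1.4e-05 from edgeR, or 1.64-fold lower. EPCAM, on chr2:47345158-47387601, had 171 and 165 CPM with vehicle and 149.1 and 160.8 CPM with decitabine, a log2 fold change of -0.12 ± 0.11 with an adjusted p of 0.40. CDH1 per kb of exon thereby came above EPCAM, at 84.9 against 63.8 CPM per kb.

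SNAI1 rose more than any other of the 10 genes that had over 3 counts in vehicle. It had 1.61 and 2.25 CPM with vehicle and 12.7 and 14.6 CPM with decitabine. Both treated libraries lay far above both vehicle libraries. The change was 2.81 ± 0.20 on the log2 scale, or 7.03-fold, and passed in edgeR (adjusted p = 2.1e-11). CDH1, a textbook target of repression by SNAIL, and SNAI1 were thus both higher in the same 2 libraries.

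TWIST1 had 1 count in each vehicle library and 51 and 39 counts with decitabine. The ratio of counts per library total was 46.2, with an exact 95% counting interval of 12.4 to 388, and the gene passed in edgeR with an adjusted p of 3.9e-07. It entered that test only through its decitabine libraries, since its vehicle counts lay below the filter, so it could hardly have been called lower. At 0.728 CPM per kb it came above ZEB1 at 0.53 CPM per kb in the treated cells. It remained far below SNAI2 at 11.6 CPM per kb.

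SNAI2, on chr8:48917598-48921740, moved the other way from SNAI1. It fell from 48.2 and 53.3 CPM to 36.9 and 39.2 CPM, with no overlap. In edgeR its log2 fold change was -0.42 ± 0.12 (adjusted p = 0.0054), and the call was lost without decitabine replicate 1 (adjusted p = 0.053). ZEB1, on chr10:31318495-31529814, had 4.55 and 4.3 CPM with vehicle and 4.31 and 4.86 CPM with decitabine, a log2 fold change of 0.04 ± 0.20 with an adjusted p of 0.90. ZEB2, on chr2:144364364-144521057, had 9 and 11 counts with vehicle and 18 and 22 with decitabine, and its log2 fold change of 0.96 ± 0.52 did not pass (adjusted p = 0.16).

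The 2 structural genes also parted. VIM, on chr10:17228241-17237593, fell from 81.2 and 76.1 CPM to 55.3 and 49.7 CPM without overlap. Its log2 fold change was -0.59 ± 0.11 with an adjusted p of 0.00018 from edgeR, or 1.51-fold lower. In a fit of all 12 libraries the fold change was -0.58 and the adjusted p was 0.14. CDH2, on chr18:27932879-28177946, had 188 and 180 CPM with vehicle and 197 and 172 CPM with decitabine, overlapping groups with a log2 fold change of -0.01 ± 0.11. The antisense neighbour VIM-AS1 had 22 to 41 counts in the HUCCT1 libraries against 1473 to 2464 for VIM.

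**Figure D4:**
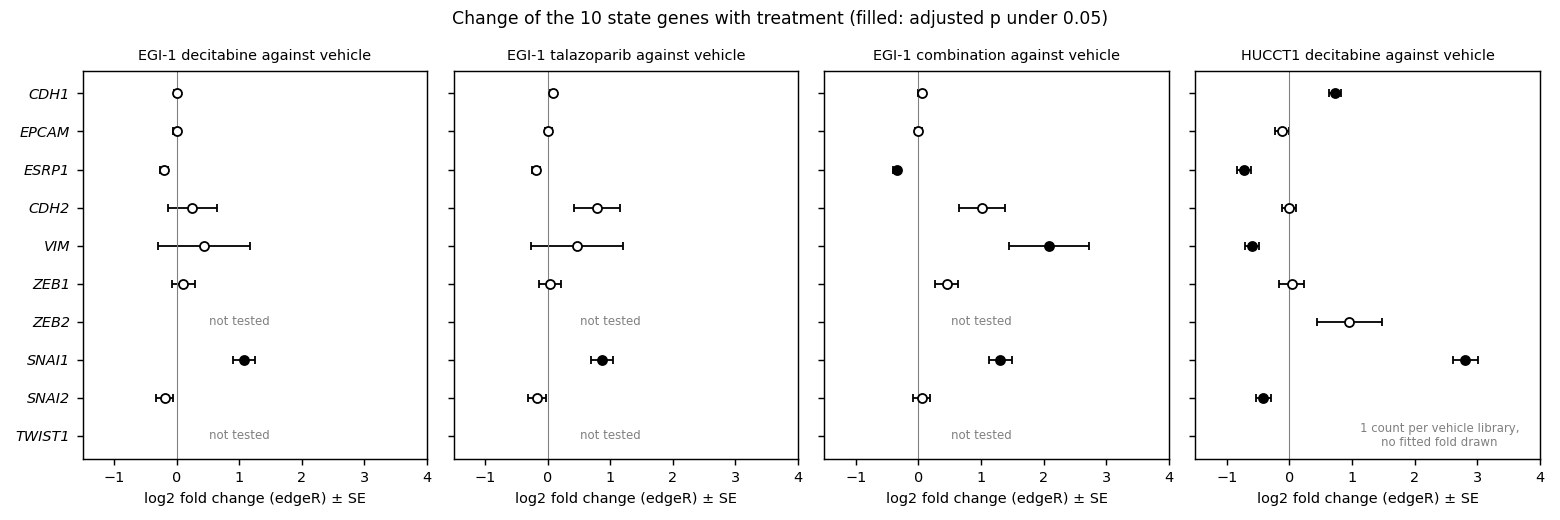
Log2 fold change against vehicle with its SE (horizontal axis, edgeR) for the 10 genes in 4 comparisons, with filled points where the adjusted p was under 0.05. SNAI1 is filled in all 4 panels, ESRP1 is filled on the lower side in the EGI-1 combination (-0.35) and in HUCCT1 (-0.72), and CDH1 is filled in HUCCT1 alone (0.73). TWIST1 has no point in the HUCCT1 panel because its vehicle libraries hold 1 count each.

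Whether decitabine acted differently in the 2 lines was asked with an interaction term in the fit of all 12 libraries. The doses differed, 1 μM in HUCCT1 and 0.5 μM in EGI-1, so line and dose cannot be told apart. The effect differed for 3 of the 10 genes, where 15.9% of all 25096 tested genes passed. The log2 effect in HUCCT1 minus that in EGI-1 was 0.73 ± 0.093 for CDH1, -0.50 ± 0.11 for ESRP1 and 1.75 ± 0.27 for SNAI1. The adjusted p-values from edgeR were 8.3e-06, 0.0036 and 7e-05. The difference for SNAI2 was -0.22 ± 0.18, that for VIM -1.01 ± 0.98 and that for EPCAM -0.11 ± 0.099. The adjusted p-values from edgeR were 0.48, 0.59 and 0.52 in that order. The decitabine effects on SNAI2 and VIM, called in one line alone, were thus not shown to differ between the lines. For TWIST1, with 0 counts in EGI-1, the difference had no usable estimate.

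The wider programmes of both states were read from 2 lists, 42 epithelial and 38 mesenchymal genes other than the 10. In HUCCT1 with decitabine, 18 of the 32 tested mesenchymal genes rose and 4 fell, where 19.6% and 13.9% of all tested genes did, and the median log2 fold change was 0.82 against 0.002 over all tested genes. Genes near 0 with vehicle, such as FOXC2 and PDGFRA, passed the count filter through the decitabine libraries alone. Such genes could hardly be called lower, and their part in the count of 18 and in the median was not tested. Of the 42 epithelial genes, 10 rose and 14 fell, with a median of -0.22. Among called mesenchymal genes with a mean log2 CPM of at least 1, the largest changes were those of SPARC, FOXC2, CDH11 and LOXL2. Below that level PDGFRA, a growth factor receptor of fibroblasts, was also called, with 2 counts in each vehicle library and 32 and 29 with decitabine. SPARC, a secreted collagen-binding protein, rose from 0.395 and 0.33 CPM to 25.8 CPM in each library, a log2 fold change of 6.13 ± 0.22 with an adjusted p of 2.7e-17 from edgeR. FOXC2, a forkhead factor of mesenchyme, rose from 0.198 and 0.0661 CPM to 8.71 and 9.25 CPM. LOXL2, an enzyme that crosslinks collagen, rose from 4.25 and 4.06 CPM to 41.2 and 45.1 CPM, or 10.3-fold. CDH11, a cadherin of mesenchymal cells, had 0.0329 and 0.363 CPM with vehicle and 4.24 and 5.87 CPM with decitabine. Vehicle and treated libraries did not overlap for any of these 4 genes.

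Among the epithelial genes named by the same rule, MIR205HG and KRT18 fell and OVOL1 rose. MIR205HG, the host transcript of a microRNA that represses ZEB1 and ZEB2, fell from 41.4 and 45.2 CPM to 17.6 and 16.3 CPM, a log2 fold change of -1.36 ± 0.12 with an adjusted p of 2.6e-09 from edgeR. The mature microRNA is shown because it links this transcript to 2 of the 10 genes, from RefSeq on GRCh38.p14 at chr1:209432166-209432187 on the plus strand, with the seed of bases 2 to 8 in capitals.
hsa-miR-205-5p: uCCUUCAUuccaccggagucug
Its own level was not measured in these libraries. KRT18, a keratin of simple epithelia, fell from 1146 and 1178 CPM to 640 and 616 CPM. OVOL1, a zinc finger factor of epithelial cells, rose from 11.4 and 14.2 CPM to 22.7 and 25.5 CPM, as CDH1 did.

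Other marker lists moved in the same 4 libraries. The summed level of 8 fibroblast markers rose from 37.6 to 37.9 CPM with vehicle to 172 to 201 CPM with decitabine, and 4 and then 7 of the 8 were above 3 counts. Most of this was COL1A1, the main chain of type I collagen, at 26.5 and 29.6 CPM and then 159 and 189 CPM, while COL3A1 had at most 2 counts in any of the 4. The summed endothelial markers rose from 4.3 to 5.73 CPM to 28.1 to 29.1 CPM, and the T lymphocyte markers from 17.3 to 21 CPM to 53.7 to 58 CPM. The biliary epithelial markers, which include EPCAM and KRT18, fell from 14500 to 16300 CPM to 8850 to 10200 CPM in sum. The fibroblast list shares DCN, LUM, PDGFRA and PDGFRB with the mesenchymal list. The part of these markers in the results for the 10 genes was not tested. In bulk samples fewer cells of a type and less RNA per cell cannot be told apart.

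In EGI-1 fewer genes of the lists were called, and the list counts were not tested between the lines. Decitabine alone changed 1 of 24 tested mesenchymal genes and 0 of the 42 epithelial genes in edgeR, where 0.544% of all tested genes passed. At an unadjusted p below 0.05 there were 6 and 4, and DESeq2 called 2 and 0. With the combination, 8 of the 24 mesenchymal genes rose and 3 fell, where 11.1% and 7.61% of all tested genes did, and the median log2 fold change was 0.15 against -0.025 over all tested genes. Of the epithelial genes 13 rose and 6 fell, with a median of 0.08. Without combination replicate 2, 6 of 25 mesenchymal genes rose and 3 fell, and 7 epithelial genes rose and 2 fell, where 6.88% and 3.85% of all tested genes did. The summed fibroblast markers were at 29.1 and 30.7 CPM with vehicle and 43.2 and 50.4 CPM with the combination, and the endothelial markers at 19.8 and 21.2 CPM and then 28.7 and 29.9 CPM. The T lymphocyte markers were at 30.5 and 32.5 CPM with vehicle and at 62.1 CPM in combination replicate 1, most of it CORO1A. The part of these markers in the EGI-1 results was not tested.

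By the same rule, with its limit on the mean level, the mesenchymal genes to name in the EGI-1 combination are LEF1, CALD1, ITGA5 and TNC. Below that limit, and named after their values were seen, SPARC and SNAI3, a relative of SNAI1, were also called, at log2 fold changes of 1.80 and 1.31. Whether these 2 calls hold without combination replicate 2 is not given here. CALD1, the actin-binding protein caldesmon, rose from 11.4 and 10.4 CPM to 24.2 and 28.3 CPM, and ITGA5, the alpha chain of a fibronectin receptor, from 50.3 and 53.6 CPM to 92.7 and 96.2 CPM. Their log2 fold changes were 1.26 ± 0.12 and 0.86 ± 0.071, and 1.15 and 0.83 without combination replicate 2. TNC, the matrix protein tenascin C, fell from 177 and 169 CPM to 99.7 and 102 CPM, by 0.79 on the log2 scale and by 0.80 without combination replicate 2. LEF1, a factor of WNT signaling that lymphocytes also use, rose from 1.51 and 1.98 CPM to 3.59 and 7.04 CPM. The log2 fold change of LEF1 was 1.62 ± 0.29 with all libraries and 1.04 ± 0.29 without combination replicate 2, with adjusted p-values of 0.0012 and 0.03 from edgeR.

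The epithelial genes named by that rule are TJP3, GRHL3, ELF3 and MARVELD2. TJP3, a scaffold of tight junctions, fell from 38.7 and 39.3 CPM to 19.4 and 18.6 CPM, a log2 fold change of -1.05 ± 0.15 with an adjusted p of 4e-04 from edgeR. ELF3, an ETS factor of epithelia, fell from 106 CPM in each library to 67.5 and 59.7 CPM. GRHL3, a grainyhead factor of surface epithelia, rose from 1.74 and 2.01 CPM to 3.72 and 3.29 CPM. MARVELD2, the tight junction protein tricellulin, fell by 0.63 on the log2 scale, and its call was lost without combination replicate 2 (adjusted p = 0.06). TJP3, ELF3 and GRHL3 were called without that library too, at log2 fold changes of -1.01, -0.66 and 0.98. TJP3 and ELF3 thus fell, and GRHL3 rose, in the cells in which ESRP1 fell while CDH1 and EPCAM did not pass. Over the whole list more epithelial genes were called higher than lower, 13 against 6 of the 42, where 11.1% and 7.61% of all tested genes were.

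**Figure D5:**
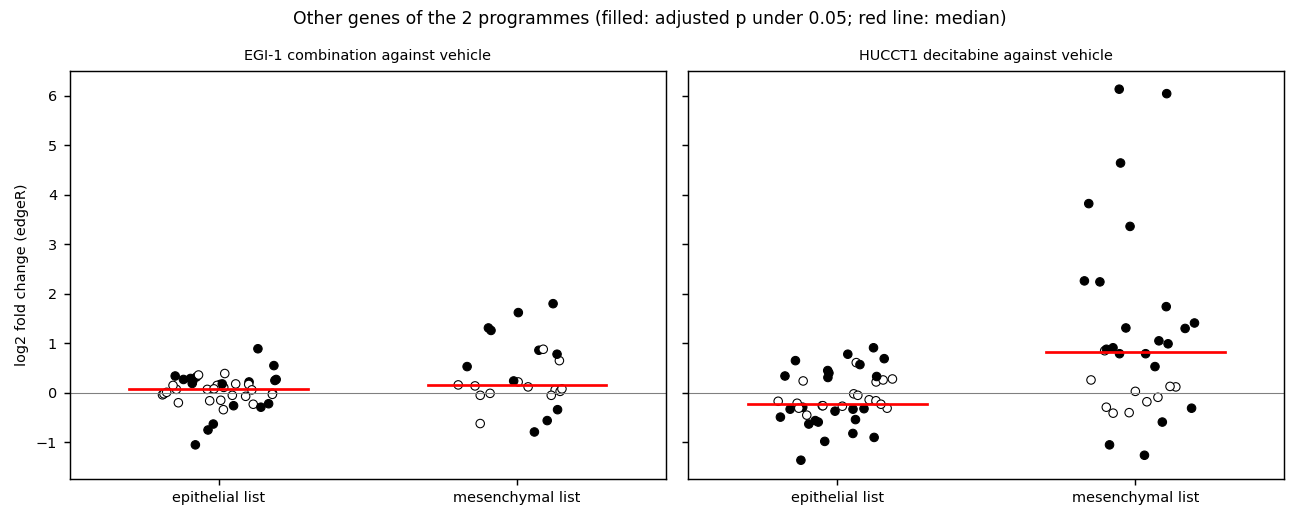
Log2 fold change against vehicle (vertical axis, edgeR) of the tested genes of the epithelial and mesenchymal lists, with 1 point per gene, filled where the adjusted p was under 0.05, and a red line at the median. In HUCCT1 with decitabine the medians are -0.22 and 0.82, and in the EGI-1 combination 0.08 and 0.15.

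Between the untreated lines, 18 of 34 tested mesenchymal genes were higher in HUCCT1 and 9 lower, where 28.5% and 27.3% of all tested genes were, with a median log2 difference of 0.81 against -0.008 over all tested genes. MSN had 27470 and 29462 counts in HUCCT1 vehicle and 1 and 0 in EGI-1 vehicle, a ratio per library total of 45500 with an exact 95% counting interval from 8160 to 1800000. LUM, a collagen-binding proteoglycan, and KLF8, a zinc finger factor, had 0 counts in both EGI-1 libraries and were at least 142.2-fold and at least 95.3-fold higher in HUCCT1, against a floor of 3 counts over the group. FSTL1, a secreted follistatin-like protein, had 0.426 and 0.467 CPM in EGI-1 and 167.3 and 161.9 CPM in HUCCT1. Other genes of the list differed the other way and are named here after their values were seen. S100A4, a calcium-binding protein, had 206.1 and 204.1 CPM in EGI-1 and 2.50 and 2.58 CPM in HUCCT1, and TNC had 177 and 169 CPM against 2.77 and 2.84 CPM. LEF1 had 46 and 55 counts in EGI-1 and 2 and 1 in HUCCT1.

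Of the 42 epithelial genes 14 were higher and 16 lower in HUCCT1, beside the same 28.5% and 27.3% of all tested genes, with a median of -0.09. Those named by the rule are TJP3, CDH3, MARVELD3 and OVOL1, which were lower in HUCCT1. Below the level limit MIR200CHG, the host transcript of other microRNAs that repress ZEB1 and ZEB2, was higher in HUCCT1 by 2.07 on the log2 scale, from 15 and 17 counts to 64 and 77. TJP3 had 38.7 and 39.3 CPM in EGI-1 and 2.96 and 2.15 CPM in HUCCT1, a log2 difference of -3.93 ± 0.19 with an adjusted p of 1.4e-12 from edgeR. CDH3, the gene of P-cadherin, differed by -1.64 ± 0.076, MARVELD3, a tight junction protein, by -1.54 ± 0.12, and OVOL1 by -1.22 ± 0.12.

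The genes whose pattern was nearest to a called gene were found by the root mean square difference of log2 CPM from the vehicle mean. This is a description over the libraries of one line, which share the same treatments. Over the 8 EGI-1 libraries the nearest to SNAI1 were SUSD2, MFAP2 and ZNF385A, at 0.128, 0.179 and 0.181. The nearest to ESRP1 were ZNF248, ELOVL6 and RNASEH2B, at 0.0265, 0.0336 and 0.0355. Over the 4 HUCCT1 libraries the nearest were DLGAP1-AS2 to CDH1, RABL3 to ESRP1, WDSUB1 to VIM, MAGEB17 to SNAI1 and EPHB4 to SNAI2. Their distances were 0.0101, 0.0148, 0.0158, 0.0445 and 0.00262 in that order. None of the nearest genes was another of the 10.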

How the data were processed

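Total RNA of 12 libraries was sequenced. The authors deposited 1 table of raw read counts per gene without normalization. The submitters' processing notes name fastp, Trim Galore, HISAT2, featureCounts and GRCh38, while the methods name fastp, STAR and RSEM. The values are whole numbers in a featureCounts layout, and the annotation release, the use of strand and the handling of multimapped reads are not given in the sources used here. Reads of overlapping genes may therefore be mixed. The names of the talazoparib libraries carry another number than the 200 nM of labels and methods, and the condition of the HUCCT1 libraries comes from the labels alone.

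Versioned Ensembl identifiers were matched to symbols by GENCODE 44, in which 87.4% have the same version. Genes were filtered with filterByExpr by group, scaled by TMM and tested with edgeR 4.0.16 in R 4.3.3 (robust quasi-likelihood fit, Benjamini-Hochberg adjustment over all tested genes, calls at an adjusted p under 0.05). The filter let a gene enter a test through the libraries of 1 group alone. The fits used the 8 EGI-1 libraries (22406 genes), the 4 HUCCT1 libraries (22479) or all 12 (25096) for comparisons between lines. DESeq2 1.42.0, other scaling factors, no filter, fewer or more libraries per fit and leaving out each library were alternatives. The scripts were tested on simulated counts.

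The 10 genes and all lists were chosen with earlier results of these data known. Named list genes are the 4 per list with the largest change among called genes whose mean log2 CPM reached 1, of which 1 is not reported here, and the nearest genes are the 3 with the smallest distance, at a pseudocount of 0.1 CPM. No replicate was dropped or merged: between replicates the mean chi-square per gene was 2.56 to 11.08. Total counts were 23139065 to 34965627 per library, while the SE and p-values of edgeR rest on the spread between libraries. Exact intervals (Clopper-Pearson, 95%) cover counting error only.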

Additional observations from a re-analysis of the deposited data

Results flagged for a closer look

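The decitabine effect on 3 of the 10 genes differed between the lines by the interaction term in edgeR. The log2 effect in HUCCT1 minus that in EGI-1 was 0.73 for CDH1, with effects of 0.73 in HUCCT1 and 0.01 in EGI-1. It was -0.50 for ESRP1, with effects of -0.72 and -0.20. It was 1.75 for SNAI1, with effects of 2.81 and 1.08. HUCCT1 received 1 μM and EGI-1 0.5 μM, so line and dose cannot be told apart.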

How the results depend on the processing

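No called gene changed direction under any alternative, while 58 of 1208 values of the 10 genes over all alternatives changed sign and passed in neither fit. The number of the 10 genes called with decitabine in EGI-1 was 0 in place of 1 in a fit of the 4 libraries of those arms, and 0 to 1 when 1 library was left out. With talazoparib it was 2 in place of 1 in the fit of 4 libraries (ESRP1 was added) and 0 to 2 with 1 library left out. The combination against decitabine and against talazoparib each gave 1 in place of 0 without a filter on low counts (VIM in each), and each gave 0 to 1 with 1 library left out, the call without combination replicate 1 resting on combination replicate 2. VIM in the EGI-1 combination was also not called in the fit of 4 libraries (adjusted p = 0.18) or of 12 (0.11). CDH2 in the EGI-1 combination was called without the filter (adjusted p = 0.021), with 4 libraries (0.022) and with 12 (0.042), and ZEB1 with 4 libraries (0.029). The replicate numbers did not pair the EGI-1 samples (correlations of deviations between -0.266 and 0.195), and in HUCCT1 the 1 pair of groups, at 0.294, is too few to decide. With the replicate block by title number, VIM in the EGI-1 combination had 1.99 with an adjusted p of 0.064 and no other call among the 10 genes changed. Over all genes, the replicate block gave 60 calls with decitabine in EGI-1 against 122, 249 against 431 for the combination over talazoparib, and 10136 against 7525 in HUCCT1. Further counts over all genes that moved by more than 1.5 times included those without a filter (335 against 122 with decitabine in EGI-1, 897 against 431 for the combination over talazoparib, 71 against 36 for the departure) and in the fits of 4 libraries (43 against 122, 1851 against 923 with talazoparib, 963 against 1720 for the combination over decitabine, 700 against 431 over talazoparib). The block by library name series gave 75 against 122. With 1 library left out, counts over all genes ran from 22 to 417 with decitabine in EGI-1, from 247 to 1663 with talazoparib, from 1850 to 5288 with the combination, from 853 to 2544 for it over decitabine, from 111 to 1007 over talazoparib, from 27 to 85 for the departure and from 2540 to 3865 for the difference in decitabine effect. Against vehicle the calls were 24 and 22 (decitabine), 247 and 276 (talazoparib) and 1965 and 1850 (combination) without EGI-1 vehicle replicate 1 or 2, and 417 and 287, 1663 and 1657, and 5288 and 5277 without EGI-1 decitabine replicate 1 or 2. Upper-quartile factors gave 2177 higher and 2244 lower genes in the EGI-1 combination in place of 2489 and 1705, and moved the median of all genes between the lines to -0.127.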
